A study of Homo sapiens with 4 samples.

Results

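Transcripts of translation initiation factors were followed in the gastric adenocarcinoma line MKN45 exposed to lipopolysaccharide (LPS) of Helicobacter pylori, a bacterium of the human stomach. The 49 genes were those whose symbol begins with EIF and a digit from 1 to 6 in the platform annotation of the arrays, leaving out EIF4EBP1, EIF5A, EIF5A2 and symbols ending in P and a number. They had 119 probe sets that list the symbol alone, of 54675 on the array, and were 49 of 19775 genes named that way. Of several probe sets for a gene the brightest on average was taken, so no difference between the groups entered the choice. The 2 groups of 2 arrays each were cells given 10 µg/ml H. pylori LPS for 8 h, and cells given fresh medium and taken at the same 8 h. Both groups were of this 1 line in the same serum-containing medium, and the series text speaks of 2 independent experiments. Fewer transcripts per cell and fewer cells carrying a transcript cannot be told apart in such bulk RNA.

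Initiation joins the small ribosomal subunit, the initiator tRNA and the capped end of an mRNA, and then adds the large subunit at the start codon. In outline, eIF2 brings the initiator tRNA and eIF2B reloads it with GTP, eIF3 is the scaffold on the small subunit, eIF4 proteins bind the cap and unwind the leader, eIF1 and eIF1A guard start-codon choice, and eIF5 and eIF5B complete the joining. Cells slow this step under stress through kinases that phosphorylate eIF2, and through the control of cap binding by mTORC1. Most of that control acts on proteins, whereas the arrays measured transcripts.

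The epithelial markers EPCAM, CDH1, KRT8, KRT18, KRT19 and CEACAM5 lay above the 99th percentile of probe sets (99.1 to 99.9), and CLDN4 at 84.6. The leukocyte markers PTPRC and CD14 and the endothelial marker CDH5 lay under the level filter, whereas CD3E, PECAM1, COL1A1, COL3A1, PDGFRB, DCN and VWF did not. All level values here are deposited log2 values, and the filter removed probe sets whose mean was under 6.06, the 30 percentile. Poly-A control RNAs, which are spiked in ahead of labelling, had means of 7.98 and 7.92 on the LPS arrays, against 8.60 and 8.25 on the untreated arrays, with 24 of 24 probe sets lower on both LPS arrays. The control probe sets for 18S ribosomal RNA averaged 7.97 and 8.41 on the LPS arrays, against 8.73 and 8.79 on the untreated arrays, with 3 of 3 lower on both LPS arrays, and those for 28S ribosomal RNA 9.77 and 9.92 on the LPS arrays, against 9.68 and 9.82 on the untreated arrays, which overlapped. The part of these shifts in the differences given here was not tested.

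No initiation factor gene passed the test after LPS, and the differences were small. Of the 49 genes, 46 lay above the filter, and EIF1AY, EIF2AK3-DT and EIF4A2 did not. With limma, 0 of 46 passed an adjusted p under 0.05, and the smallest adjusted p was 0.318, for EIF4B. In all, 4 of 16252 genes passed (0.0246%), the chemokine genes CCL20, CXCL1, CXCL3 and CXCL8, with CCL20 7.61-fold higher. At that background 0 members is no result about the family, so the intervals are given. The 95% interval of the difference lay wholly between 0.8-fold and its inverse, 1.25-fold, for 42 of the 46 (91.3%), against 68.5% of all genes tested. Intervals were narrower for bright genes, and 30 of the 46 members were among the brightest 10% of genes tested. There, 30 of 30 members had intervals within those bounds, against 92% of all genes. Among the less bright genes 12 of 16 members (75%) had such intervals, against 65.9% of all genes. These shares were not tested, and no result about the family is drawn from them. The 4 with wider bounds were EIF3C and 3 non-coding RNAs, EIF3J-DT, EIF2AK3-AS1 and EIF1B-AS1.

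Log2 differences of the 46 genes, LPS minus untreated, ran from -0.33 for EIF3C to 0.17 for EIF1B-AS1, with a median of -0.018, beside -0.0047 over all genes tested. The sign of that median was not stable. It was 0.0042 without untreated replicate 1 and -0.051 without untreated replicate 2. After quantile normalization, cyclic loess and median centring it was 0.012, 0.018 and -0.032, beside 0.013, 0.010 and -0.019 over all genes tested. Members above and below 0 numbered 18 and 28 as deposited, and 25 and 21, 26 and 20, and 15 and 31 after those scalings. All genes tested numbered 7841 and 8411 as deposited, and 8912 and 7340, 8740 and 7512, and 6987 and 9265 after them. Unadjusted p-values under 0.05 were found for 2 members with higher values (4.35%, against 3.72% of all genes) and for 5 with lower values (10.9%, against 7.91%). That balance turned with the scaling, to 5 higher and 4 lower after quantile normalization, 4 and 4 after cyclic loess, and 0 and 7 after median centring. Both LPS arrays lay above both untreated arrays for 9 members (19.6%, against 19.7%) and below them for 12 (26.1%, against 25.7%). These shares were close to those of all genes. The median absolute log2 difference between the group means was 0.061 over the members and 0.078 over all genes tested. Single arrays differed by a median of 0.053 within the LPS pair and 0.092 within the untreated pair over the members. Over all genes tested these were 0.068 and 0.091. A difference between single arrays is not the same measure as one between means of 2 arrays.

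**Figure D1:**
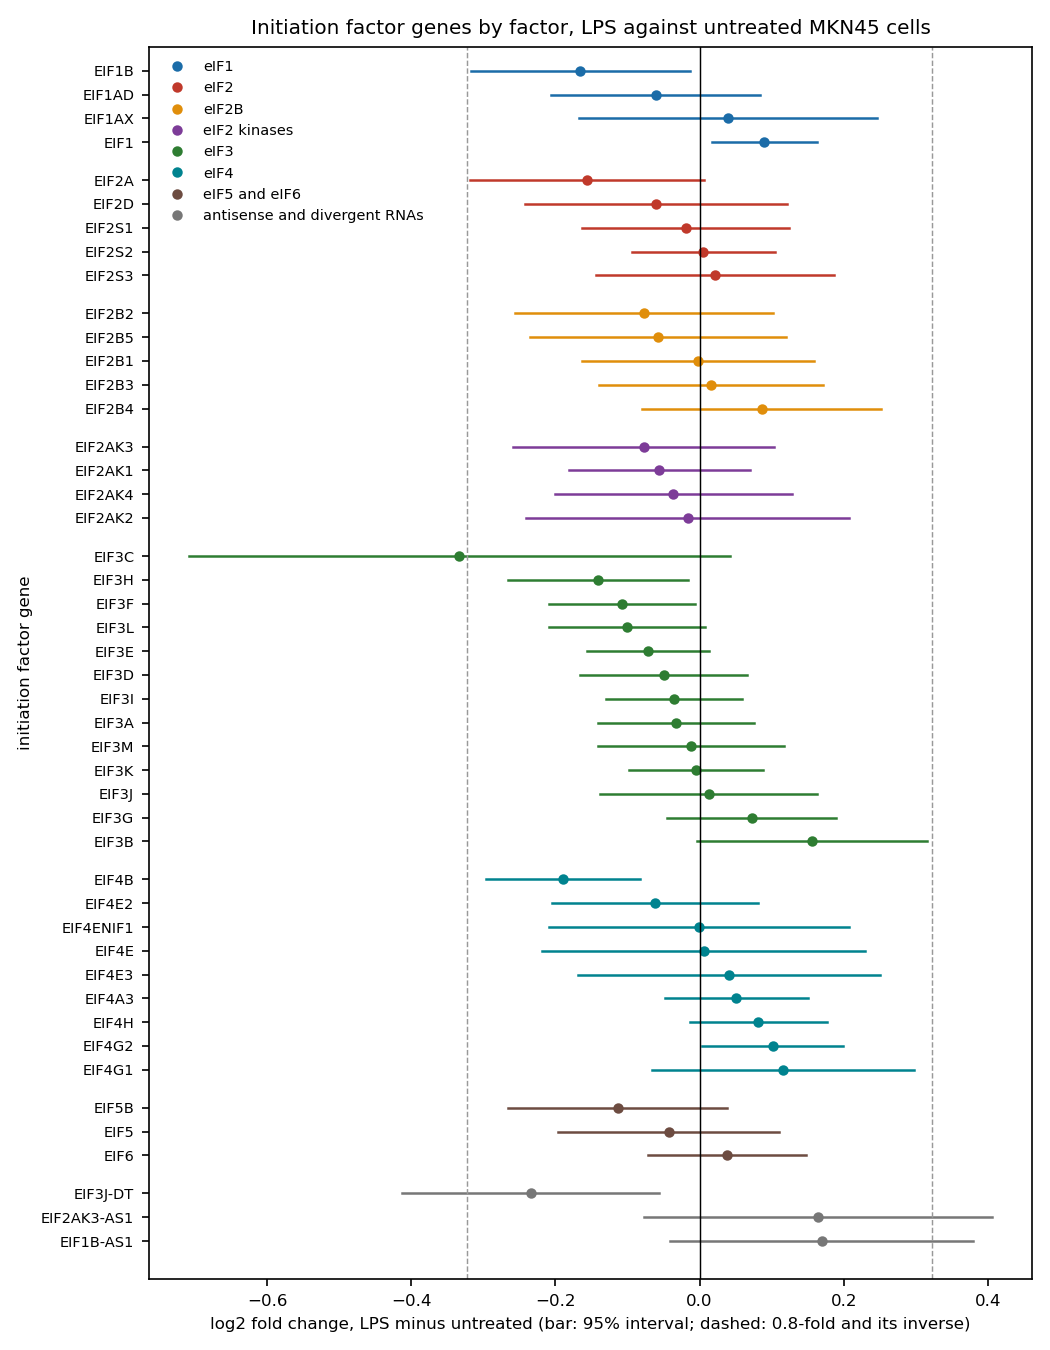
Log2 fold change, LPS minus untreated, of the 46 initiation factor genes tested, grouped by factor, with the fitted 95% interval as a bar. Dashed lines mark 0.8-fold and its inverse, and 42 of the 46 intervals lie between them, EIF3C having the widest.

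Transcript starts are shown because mRNAs of translation factors often begin with a C and a run of pyrimidines, the terminal oligopyrimidine (TOP) motif, through which mTORC1 and the protein LARP1 control their translation. In the RefSeq promoter windows used, of build GRCh38.p14, 42 of the 49 genes had a window. EIF2S2, EIF2AK1, EIF3A, EIF3E, EIF3G, EIF3H and EIF3L had none there, so they are in neither group of the comparison by start. A C at the start base followed by at least 4 further C or T bases was found in 9 of the 42. Only the transcribed strand was read, and no other motif was searched. The lines run from 15 bases before the start to 15 from it on, with the C and its pyrimidine run in capitals. The first 8 are the tested genes with such a run, in order of their log2 difference, and the last 3 are genes without one, the paralogs EIF1B and EIF1 and the eIF3 subunit EIF3B.
EIF4B, chr12:53006441-53006470, plus strand: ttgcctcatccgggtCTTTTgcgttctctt
EIF2A, chr3:150546772-150546801, plus strand: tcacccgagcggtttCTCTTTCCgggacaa
EIF3F, chr11:7987322-7987351, plus strand: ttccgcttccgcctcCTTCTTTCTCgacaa
EIF2D, chr1:206612451-206612480, minus strand: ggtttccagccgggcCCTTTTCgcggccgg
EIF3D, chr22:36529152-36529181, minus strand: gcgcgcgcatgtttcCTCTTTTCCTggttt
EIF3M, chr11:32583816-32583845, plus strand: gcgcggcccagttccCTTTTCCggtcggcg
EIF3K, chr19:38619173-38619202, plus strand: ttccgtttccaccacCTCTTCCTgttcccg
EIF2S3, chrX:24054941-24054970, plus strand: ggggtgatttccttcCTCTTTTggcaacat
EIF1B, chr3:40309692-40309721, plus strand: tcggccattttgtgcgagaagccgcagcgc
EIF1, chr17:41688870-41688899, plus strand: aggcaccgcccctctgccccagtcactgag
EIF3B, chr7:2354812-2354841, plus strand: ccccgtcgcacgcacatggctgggctgtag

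Of all 27305 genes with a promoter window 5.14% held such a start, and of all 35116 windows 4.07%. Among tested members with a promoter window, the 8 with the run had a median log2 difference of -0.055. Of these, 7 of 8 were below 0 as deposited and 5 of 8 after cyclic loess. The 31 without it had a median of -0.00016, with 16 below 0 as deposited and 11 after cyclic loess. Over all genes tested, the 843 with the run had a median of -0.014 and the 11990 without it -0.0073. With the genes tested split by mean level into 10 equal bins, or deciles, such starts were more frequent among bright genes, at 11.4% in the brightest decile, number 10, against 5.97% in the others. Within the brightest decile the medians were -0.023 with the run and -0.033 without it, the opposite order to that of the members. The 8 genes were set apart after their values were known, and no test was made of them.

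The factors of start-codon selection lay on both sides of 0. EIF1, whose product keeps the scanning ribosome open until the start codon is found, had 13.93 and 13.90 on the LPS arrays, against 13.84 and 13.82 on the untreated arrays. Both LPS arrays were higher, by a log2 difference of 0.090 (interval 0.018 to 0.16, limma adjusted p = 0.364). Of its 6 probe sets above the filter 5 were higher, at 0.080 to 0.18, and the 1 that is neither of the _x_at nor of the _s_at type, which can match more than 1 transcript, differed by -0.028. EIF1B, a close paralog of EIF1, lay the other way, at 11.57 and 11.48 with LPS and 11.75 and 11.63 without. Its log2 difference was -0.17 (interval -0.32 to -0.013, limma adjusted p = 0.404) on its only probe set above the filter, and the groups did not overlap.

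EIF1AX, the X-linked gene of eIF1A, had 13.12 and 13.20 on the LPS arrays and 12.98 and 13.27 on the untreated arrays. The groups overlapped, and the log2 difference of 0.039 went with -0.10 to -0.042 on its other 3 probe sets. Without untreated replicate 1 the EIF1AX difference was -0.10 and without untreated replicate 2 it was 0.18, so its sign rested on 1 array. EIF1AD, which encodes a protein with an eIF1A-like domain, differed by -0.061 (interval -0.21 to 0.085).

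Read from their brightest probe sets, the 3 subunits of eIF2, which carries the initiator tRNA, stayed within narrow bounds. EIF2S1, the alpha subunit that stress kinases phosphorylate, had 12.33 and 12.30 on the LPS arrays and 12.41 and 12.25 on the untreated arrays, a log2 difference of -0.019 (interval -0.16 to 0.12). EIF2S2, the beta subunit, had 13.42 and 13.44 with LPS and 13.47 and 13.38 without, a difference of 0.0053 (interval -0.094 to 0.10). EIF2S3, the gamma subunit that binds GTP, had 12.83 and 12.96 with LPS and 12.79 and 12.96 without, a difference of 0.021 (interval -0.14 to 0.19). In each of the 3 the LPS and untreated arrays overlapped on these probe sets, and the untreated pair was further apart than the LPS pair. Other probe sets above the filter differed by -0.12 and -0.033 for EIF2S1, 0.082 for EIF2S2, and -0.11 and 0.021 for EIF2S3. The groups did not overlap on those at -0.12 and 0.082. The interval of the EIF2S3 probe set at -0.11 was -0.48 to 0.25, so its sign depended on the probe set.

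Other proteins, EIF2A and EIF2D, can bring tRNA to the ribosome without eIF2. EIF2A, 1 of the genes with a pyrimidine start shown above, had 12.01 and 11.89 on the LPS arrays, against 12.18 and 12.03 on the untreated arrays. Both LPS arrays were lower, with a log2 difference of -0.16 (interval -0.32 to 0.0059, limma adjusted p = 0.432), though LPS replicate 1 and untreated replicate 2 nearly met, and the difference was -0.082 without untreated replicate 1. EIF2D differed by -0.061 (interval -0.24 to 0.12).

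eIF2B, the exchange factor that returns eIF2 to its GTP form, showed no common direction over its 5 subunits, with 2 above 0 and 3 below 0 and a median of -0.0019. EIF2B5, the catalytic epsilon subunit, had 10.43 and 10.50 on the LPS arrays and 10.59 and 10.45 on the untreated arrays, which overlapped (log2 difference -0.057, interval -0.24 to 0.12). EIF2B4, the delta subunit, had 10.17 and 10.20 with LPS and 10.15 and 10.05 without, and was higher on both LPS arrays by 0.086 (interval -0.080 to 0.25, limma adjusted p = 0.65). Its second probe set was lower on both, at -0.054, so the direction of EIF2B4 depended on the probe set. The alpha, beta and gamma subunits EIF2B1, EIF2B2 and EIF2B3 differed by -0.0019, -0.077 and 0.016.

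The 4 kinases that phosphorylate eIF2 each answer a different stress, and none passed the test. EIF2AK1, the haem-regulated kinase HRI, had 11.88 and 11.85 on the LPS arrays and 11.97 and 11.88 on the untreated arrays. EIF2AK2, the double-stranded RNA sensor PKR and an interferon-induced gene, had 9.66 and 9.65 with LPS and 9.79 and 9.55 without. EIF2AK3, the endoplasmic reticulum stress kinase PERK, had 9.74 and 9.71 with LPS and 9.87 and 9.74 without. These 3 overlapped between the groups. EIF2AK4, the amino acid sensor GCN2, had 9.63 and 9.67 with LPS and 9.68 and 9.70 without, where the lower untreated array lay above the higher LPS array by less than the spread within the LPS pair. The log2 differences of EIF2AK1, EIF2AK2, EIF2AK3 and EIF2AK4 were -0.056, -0.017, -0.077 and -0.037, with intervals that all spanned 0 and reached no further than -0.26 below it and 0.21 above it. Their median was -0.046, beside -0.034, -0.048 and -0.029 for all genes in deciles 7, 8 and 10 of level, where these kinases lay, and 2 of the 4 were above 0 after quantile normalization or cyclic loess. The other probe sets of EIF2AK1 and EIF2AK2 above the filter lay above 0, at 0.072 and 0.020, so the sign of these 2 depended on the probe set.

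**Figure D2:**
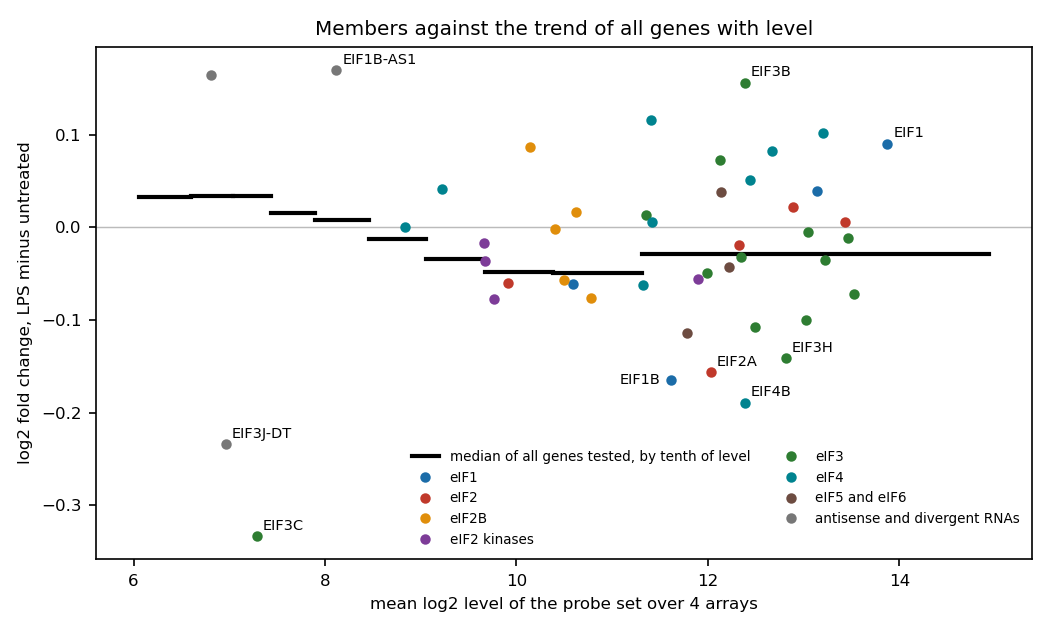
Log2 fold change, LPS minus untreated, against the mean log2 level of the probe set for the 46 members, coloured by factor, with black bars at the median of all genes tested in each decile of level. Bright genes lie slightly below 0 in general, and 24 members lie above and 22 below the median of their own decile.

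That trend with level matters for this family because 38 of its 46 tested genes lay in the 3 brightest deciles and 30 in the brightest. All genes in deciles 8, 9 and 10 had median log2 differences of -0.048, -0.049 and -0.029, against 0.033 in the faintest decile. Set against the median of their own decile, 24 members were above it and 22 below it, and the median distance was 0.011. The members were spread on both sides of the medians of genes of like level.

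eIF3, the largest initiation factor, was measured by all 13 of its subunit genes, of which 10 were below 0 and 3 above (median -0.035), or 8 and 5 after quantile normalization and 7 and 6 after cyclic loess. The subunits a, c, e, f, h, k, l and m form the PCI and MPN octamer that is the body of eIF3, and all 8 of their genes were below 0 as deposited, 6 after quantile normalization and 5 after cyclic loess. This split by structure was made after the values were seen, and 6 of 8 lay below the median of their own level decile. Of all 16252 genes tested, 8411 were below 0 as deposited. In decile 10 of level, 101 of the 160 genes with the pyrimidine start were below 0, and 800 of the 1238 without it.

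Within the octamer, EIF3H had 12.73 and 12.75 on the LPS arrays, against 12.95 and 12.82 on the untreated arrays, lower on both with a log2 difference of -0.14 (interval -0.27 to -0.016, limma adjusted p = 0.393). EIF3F, an MPN subunit like EIF3H, had 12.42 and 12.45 with LPS and 12.56 and 12.53 without, a log2 difference of -0.11 (interval -0.21 to -0.0064, limma adjusted p = 0.411). Second, much dimmer probe sets of EIF3H and EIF3F above the filter differed by -0.24 and -0.13, so both genes were lower on each probe set above the filter. EIF3L and EIF3E, PCI subunits, had log2 differences of -0.10 and -0.072, without overlap between the groups. The second, much dimmer EIF3E probe set differed by -0.27. Without untreated replicate 1 the EIF3H difference was -0.072 and without untreated replicate 2 it was -0.21, while that of EIF3F was -0.094 and -0.12.

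EIF3A, the scaffold subunit, had 12.30 and 12.36 on the LPS arrays and 12.37 and 12.36 on the untreated arrays, which overlapped (log2 difference -0.032, interval -0.14 to 0.076). The other 2 probe sets of EIF3A differed by -0.15 and -0.052 with the LPS arrays below. EIF3M and EIF3K differed by -0.012 and -0.0048, and their probe sets disagreed in sign. Of the 4 EIF3M probe sets above the filter 3 were above 0, up to 0.13. Of the 4 EIF3K probe sets 1 was above 0, at 0.049. EIF3C, another large core subunit, had 6.97 and 7.27 with LPS and 7.24 and 7.67 without on a dim probe set, the only one that lists EIF3C alone, since the others also list EIF3CL. Its arrays overlapped and its interval of -0.71 to 0.042 was the widest of the family, so EIF3C was poorly measured here.

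The subunits b, g and i form a mobile module near the mRNA channel, and EIF3B and EIF3G lay above 0. EIF3B had 12.39 and 12.54 on the LPS arrays, against 12.24 and 12.38 on the untreated arrays, a log2 difference of 0.16 (interval -0.0036 to 0.32, limma adjusted p = 0.43). LPS replicate 1 exceeded untreated replicate 2 by little, and the EIF3B probe sets disagreed, with the 3 brightest at 0.084 to 0.16 and the other 3 at -0.18 to -0.026. EIF3G differed by 0.072 (interval -0.045 to 0.19) with both LPS arrays higher. EIF3I, the third member of the module, differed by -0.035, the cap-binding subunit EIF3D by -0.050 and the loosely bound EIF3J by 0.013.

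In eIF4, the factors that handle the cap and the leader, EIF4B had the smallest p of the family. EIF4B, which stimulates the helicase eIF4A, had 12.31 and 12.26 on the LPS arrays, against 12.49 and 12.46 on the untreated arrays. Both LPS arrays were lower and each pair lay close together, for a log2 difference of -0.19, which is 0.877-fold (interval 0.814 to 0.944), with a limma adjusted p of 0.318. The 2 other EIF4B probe sets differed by -0.22 and -0.32, each also lower on both LPS arrays, and at the probe set level the unadjusted p-values of the 3 were 0.0040, 0.0191 and 0.0307. With 1 array left out the EIF4B difference was -0.21 to -0.16. The unadjusted p of the chosen probe set was thus the lowest of 46, and it did not pass among 16252 genes.

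EIF4H, a second helicase cofactor related to EIF4B, lay the other way, at 12.70 and 12.72 with LPS and 12.62 and 12.64 without (log2 difference 0.082, interval -0.013 to 0.18, limma adjusted p = 0.463). The groups did not overlap for EIF4H, and the 2 LPS arrays differed by little. EIF4E, the cap-binding protein, had 11.47 and 11.36 on the LPS arrays and 11.55 and 11.27 on the untreated arrays, a difference of 0.0058 (interval -0.22 to 0.23). Untreated replicates of EIF4E were further apart than the groups, and its difference was -0.13 without untreated replicate 2 and 0.15 without untreated replicate 1.

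The scaffolds of the cap complex were above 0. EIF4G1, which joins eIF4E, eIF4A and eIF3, had 11.37 and 11.56 on the LPS arrays and 11.31 and 11.39 on the untreated arrays, which overlapped (log2 difference 0.12, interval -0.065 to 0.30). EIF4G2, also called DAP5, a relative that lacks the eIF4E site, had 13.22 and 13.29 with LPS, against 13.13 and 13.18 without. EIF4G2 was higher on both LPS arrays by 0.10 (interval 0.0041 to 0.20, limma adjusted p = 0.417), and its other probe set above the filter differed by 0.089.

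EIF4A3, the helicase of the exon junction complex, had 12.46 and 12.46 on the LPS arrays and 12.42 and 12.41 on the untreated arrays (log2 difference 0.051, interval -0.048 to 0.15). Its 2 pairs were tight and did not overlap, and the difference did not pass. EIF4A2 was listed alone on 1 probe set, which lay under the filter at 4.22 and 4.29 with LPS and 4.13 and 4.12 without, and no probe set lists EIF4A1 alone. The cap-binding relatives EIF4E2, known as a repressor, and EIF4E3 differed by -0.062 and 0.041, and EIF4ENIF1, which carries eIF4E into the nucleus, by -0.00016.

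**Figure D3:**
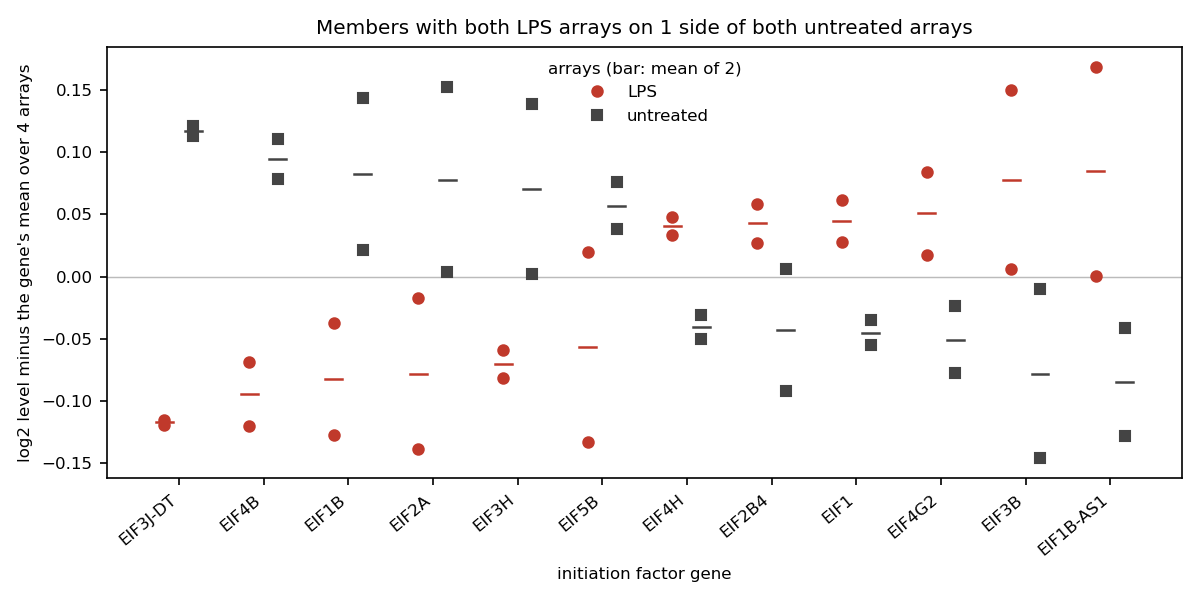
Log2 level minus the gene's mean over the 4 arrays for the 6 members with the lowest and the 6 with the highest log2 fold change among those whose groups did not overlap, with LPS arrays as circles, untreated arrays as squares and bars at the mean of 2. EIF4B and EIF3J-DT, which are lower, and EIF1 and EIF4H, which are higher, show gaps wider than the spread within their pairs. For EIF5B, EIF2A, EIF3B and EIF2B4 the nearest arrays of the 2 groups almost meet.

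The late factors gave small values of both signs. EIF5, which triggers GTP hydrolysis by eIF2 at the start codon, had 12.16 and 12.25 on the LPS arrays and 12.32 and 12.17 on the untreated arrays (log2 difference -0.043, interval -0.20 to 0.11). EIF5B, the GTPase of subunit joining, had 11.64 and 11.80 with LPS and 11.85 and 11.82 without, lower on both LPS arrays with a log2 difference of -0.11 (interval -0.27 to 0.038, limma adjusted p = 0.513), against -0.092 to 0.0095 on its other 5 probe sets. EIF6, which keeps the large subunit from joining too early, had 12.14 and 12.18 with LPS and 12.13 and 12.11 without, higher on both LPS arrays by 0.038 (interval -0.072 to 0.15). For none of the 3 did the interval leave out 0.

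Of the members 4 were non-coding RNAs that take their names from a neighbouring initiation factor gene. EIF3J-DT, divergent from EIF3J, had 6.85 and 6.84 on the LPS arrays, against 7.07 and 7.08 on the untreated arrays. Its pairs were nearly identical and its log2 difference of -0.23 (interval -0.41 to -0.057, limma adjusted p = 0.351) did not pass, while EIF3J itself differed by 0.013. EIF1B-AS1 had 8.28 and 8.12 with LPS and 7.99 and 8.07 without, a difference of 0.17 (interval -0.041 to 0.38, limma adjusted p = 0.486), against 0.018 and 0.028 on its other 2 probe sets. EIF2AK3-AS1 differed by 0.16 and overlapped between the groups, and EIF2AK3-DT lay under the filter.

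Probe sets of a gene did not always share their sign. Of the 27 members with several probe sets above the filter, 12 had all of them on 1 side of 0 and 15 had them on both sides. The same share was not computed over all genes, so the count is no result about the family. Among the 12, EIF4B, EIF3A, EIF3E, EIF3F, EIF3H, EIF2B5 and EIF2S1 were below 0 throughout, and EIF4G1, EIF4G2, EIF2S2, EIF3J and EIF1B-AS1 above 0. At the level of probe sets 0 of 105 above the filter passed in limma (0.00785% of all 38229 did). Taking unadjusted p-values under 0.05, 5 probe sets had higher and 10 had lower values, against 3.69% and 8.02% of all probe sets tested.

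**Figure D4:**
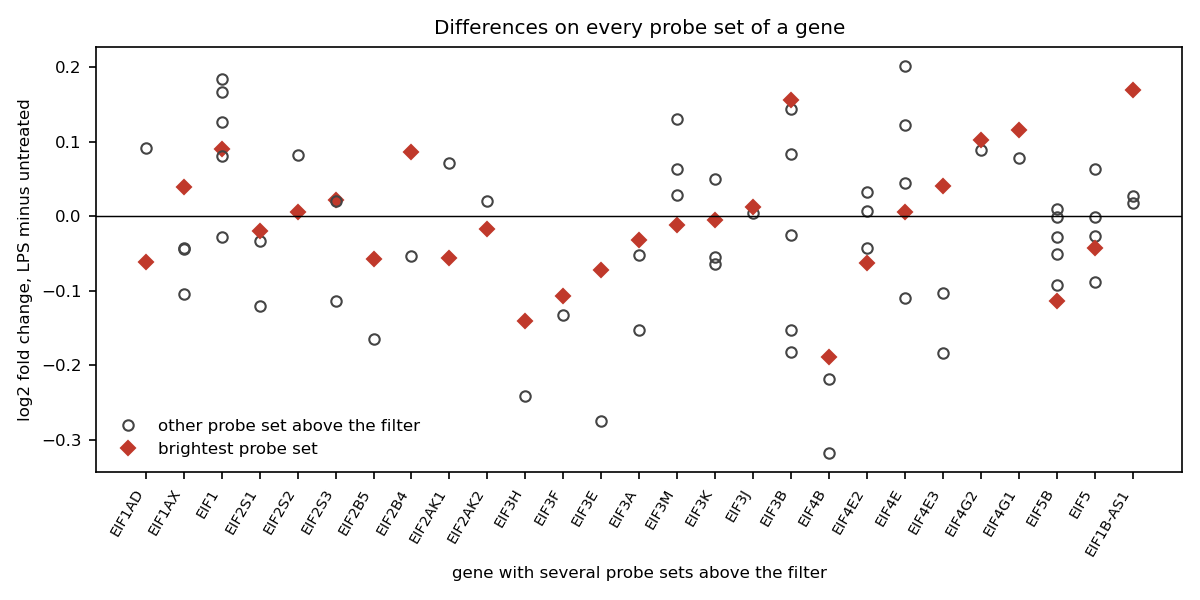
Log2 fold change, LPS minus untreated, on every probe set above the filter for the 27 members that have several, with the brightest probe set as a filled diamond and the others as open circles. EIF4B, EIF3H and EIF3E lie below 0 on each, whereas EIF3B, EIF4E and EIF5 lie on both sides.

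The regulators of the pathway that act around these factors were taken from lists of known members, and 0 of their tested members passed in limma. Of the regulators of cap binding 7 of 9 listed were tested, with a median log2 difference of 0.0013 and 0 at an unadjusted p under 0.05. The 2 smallest p-values of that list were those of MKNK2, a kinase that phosphorylates eIF4E, and LARP1. MKNK2 had 11.90 and 12.02 on the LPS arrays and 12.06 and 12.03 on the untreated arrays, with a gap between the groups far smaller than the spread of the LPS pair (log2 difference -0.080). LARP1 had 12.21 and 12.41 with LPS and 12.31 and 12.21 without, which overlapped (difference 0.057). The eIF4E inhibitor EIF4EBP1 had 10.24 and 10.24 on the LPS arrays and 10.25 and 10.26 on the untreated arrays, a difference of -0.010 (interval -0.16 to 0.14). PDCD4, an inhibitor of eIF4A, was not tested.

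Poly(A)-binding proteins and their partners, which link the mRNA tail to eIF4G, had 5 of 5 tested members below 0 (median -0.11), or 4 of 5 after quantile normalization or cyclic loess, with 3 at an unadjusted p under 0.05, against 7.91% of all genes. These were PABPC3, the repressor PAIP2 and the activator PAIP1. PABPC3 had 13.21 and 13.20 on the LPS arrays, against 13.32 and 13.31 on the untreated arrays (log2 difference -0.11, limma adjusted p = 0.342). PAIP2 had 11.59 and 11.55 with LPS and 11.82 and 11.70 without (difference -0.19, limma adjusted p = 0.357), and PAIP1 differed by -0.15 (limma adjusted p = 0.427). Both LPS arrays lay below both untreated arrays for 4 of the 5, these 3 and PABPC1, against 25.7% of all genes. PABPC1, the main cytoplasmic poly(A)-binding protein, had 13.71 and 13.73 on the LPS arrays and 13.78 and 13.78 on the untreated arrays (difference -0.057, limma adjusted p = 0.485). PABPC3 was read by an _x_at probe set and is a near copy of PABPC1, so its signal may include that of PABPC1. No member of the list passed.

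In the mTORC1 list, the nutrient-sensing kinase complex and its S6 kinases, 10 genes were tested, 5 above 0 and 5 below 0 (median 0.015). TSC1, an mTORC1 inhibitor, had 8.50 and 8.61 on the LPS arrays, against 8.78 and 8.77 on the untreated arrays (log2 difference -0.22, limma adjusted p = 0.385). RPS6KB1, an S6 kinase, had 10.81 and 10.83 with LPS and 11.10 and 10.90 without (difference -0.18, limma adjusted p = 0.431). Both were among the 4 of 10 that were lower on both LPS arrays, against 25.7% of all genes, and neither passed. MTOR itself had 8.75 and 8.84 on the LPS arrays, against 8.69 and 8.69 on the untreated arrays, a difference of 0.11 (interval -0.075 to 0.29). Among 10 genes of the eIF2 phosphatases and kinase partners, 2 had higher values and 1 a lower value at unadjusted p under 0.05, against 3.72% and 7.91% of all genes. PPP1R15A, the stress-induced subunit GADD34 that directs a phosphatase to eIF2, had 8.23 and 8.29 with LPS and 7.96 and 8.11 without, a difference of 0.22 (interval 0.024 to 0.42, limma adjusted p = 0.394). PPP1CA, a catalytic subunit of that phosphatase, had 12.82 and 12.92 with LPS and 12.75 and 12.72 without (difference 0.13, limma adjusted p = 0.385). IMPACT, an inhibitor of GCN2 activation, had 7.43 and 7.48 with LPS and 7.86 and 7.60 without (difference -0.28, limma adjusted p = 0.388). Of the 10 genes, 3 were higher on both LPS arrays, PPP1R15A and PPP1CA among them, against 19.7% of all genes. IMPACT was 1 of 2 that were lower on both, against 25.7%, and none passed.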

How the data were processed

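RNA of MKN45 cells was measured on 4 Affymetrix arrays, 2 per group. The deposited log2 expression values, 1 per probe set, were used as given; the submitters' processing notes name MAS5 and RMA, without saying which made them. No raw scanner values were used here. The series text speaks of independent experiments and the labels say no more on the origin of replicates, so p-values measure the spread between these arrays, which may be technical in part, and the number of arrays limits the precision.

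Probe sets whose mean lay under the 30 percentile (6.06) were left out. limma 3.58.1 in R 4.3.3 (lmFit and eBayes with an intensity trend, two-sided) was fitted on all 38229 others, each gene was read from its brightest probe set that lists 1 symbol, and p-values were adjusted by Benjamini-Hochberg over 16252 genes, with a threshold of 0.05. Of the probe sets other than controls, 41091 list 1 symbol, 1801 several and 11721 none. The script was tested on simulated data.

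The members, the lists and the tests were chosen with earlier results of these data known. Every member is named; array values are given for the 6 lowest and 6 highest differences among members whose groups did not overlap and for a fixed set of core factors, and for the 2 smallest p-values of each partner list. EIF4A1 and EIF4G3 were not analysed here. Promoter sequences are RefSeq's. Other filters, scalings, variance models, probe set choices, the replicate number as a block and leaving out each array were tried.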

Additional observations from a re-analysis of the deposited data

How the results depend on the processing

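No initiation factor gene passed limma's test under any of the 16 other settings, and the smallest adjusted p in any was 0.107, for EIF3H without untreated replicate 2. Over all genes, the count of lower genes was 0, against 2 with the replicate number as a block, 1 without _x_at and _s_at probe sets and 5 with the variance prior taken from 1 probe set per gene, a setting chosen after seeing the data. With those 5, 10 genes were called in place of 4. With the replicate block 5 genes were higher, and the smallest limma adjusted p of a member was 0.187, for EIF4B. The replicate 1 minus replicate 2 differences of the 2 groups correlated at 0.103 across all genes tested and 0.46 across members. No label says that a number marks a shared experiment. Leaving out 1 array gave 3 to 4 higher and 0 to 1 lower genes. Median log2 differences moved as follows, where the eIF1 group includes EIF1AD, eIF2 includes EIF2A and EIF2D, and eIF4 includes EIF4A3 and EIF4ENIF1. For eIF1 the median was -0.061 with no level filter, 0.018 after quantile normalization, -0.025 after median centring, 0.029 after cyclic loess and -0.053 without _x_at and _s_at probe sets. For eIF2B it was 0.052 after quantile normalization. For eIF3 it was -0.012 after quantile normalization, -0.0045 after cyclic loess and -0.076 without _x_at and _s_at probe sets, and for eIF4 0.082, 0.082 and -0.00016 under those settings. Over all members it was 0.018 after cyclic loess. Leaving out 1 array gave -0.051 to 0.0042 for all members, -0.081 to 0.0082 for eIF1, -0.099 to -0.0037 for eIF2, -0.050 to 0.046 for eIF2B, -0.12 to -0.012 for the eIF2 kinases, -0.061 to -0.022 for eIF3, -0.0093 to 0.072 for eIF4, -0.12 to 0.036 for eIF5 and eIF6, and 0.062 to 0.24 for the non-coding RNAs. Single genes kept their sign in every setting for 25 members and changed it in some for 21. The cause of these shifts was not tested. Members at an unadjusted p under 0.05 numbered 0 to 5 higher and 1 to 7 lower when 1 array was left out.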

Other observations

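A further list held other proteins of initiation and recycling, and also PAN3, a subunit of a poly(A) nuclease. Of its tested genes 0 of 8 passed in limma, with 2 lower at unadjusted p under 0.05, PAN3 among them, against 7.91% of all genes. PAN3 had 10.79 and 10.82 on the LPS arrays, against 11.01 and 11.05 on the untreated arrays (log2 difference -0.23, limma adjusted p = 0.32). DENR, a ribosome recycling factor, had 11.95 and 11.89 with LPS and 12.16 and 12.03 without (difference -0.17, limma adjusted p = 0.369). PAN3 and DENR were named for the 2 smallest p-values of the list, so their groups could hardly overlap. They were the 2 of 8 lower on both LPS arrays, against 25.7% of all genes. On both LPS arrays 1 of 8 was higher, against 19.7%. Of the elongation and termination factors, 0 of 8 passed. The elongation kinase EEF2K had 10.55 and 10.56 with LPS and 10.78 and 10.67 without (difference -0.17, limma adjusted p = 0.404). The release factor ETF1 had 11.76 and 11.78 with LPS and 11.67 and 11.65 without (difference 0.11, limma adjusted p = 0.442). EEF2K was 1 of 3 of the 8 that were lower on both LPS arrays, against 25.7% of all genes. ETF1 was the only 1 higher on both, against 19.7%. Mitochondrial initiation has its own factors, and 2 of 2 were lower on both LPS arrays, as were 25.7% of all genes. MTIF2, the mitochondrial counterpart of bacterial IF2, had 9.99 and 9.95 on the LPS arrays, against 10.34 and 10.26 on the untreated arrays, a difference of -0.33 (interval -0.49 to -0.16, limma adjusted p = 0.285). MTIF3 had 9.61 and 9.70 with LPS and 9.77 and 9.79 without (difference -0.13, limma adjusted p = 0.52).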
